A study of Mus musculus with 12 samples.

Results

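The endoplasmic reticulum (ER) unfolded protein response was followed through 10 genes chosen by name, *Ern1*, *Atf6*, *Xbp1*, *Hspa5*, *Hsp90b1*, *Calr*, *Pdia4*, *Sdf2l1*, *Dnajb9* and *Herpud1*. They are 10 of the 24453 genes in the count table, and all 10 passed the filter on low counts. They encode ER chaperones and stress sensors, and were set apart from the genes of the mitochondrial stress response.

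The ER folds proteins bound for the membrane and for secretion. When unfolded proteins build up there, 3 sensors in its membrane respond. Ire1, the product of *Ern1*, cuts a short intron out of *Xbp1* RNA so that a strong transcription factor is made. Atf6 moves to the Golgi, where proteases release an active fragment. Perk, the product of *Eif2ak3*, slows translation and so raises Atf4 and its target Chop, the product of *Ddit3*. The first 2 arms are known for raising chaperones and degradation factors, while other kinases that sense amino acid shortage or mitochondrial damage can also raise Atf4. Fibroblasts secrete much collagen and hold high levels of ER chaperones.

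RNA was sequenced from 4 mouse embryonic fibroblast (MEF) lines of strain C57BL6/J, with 3 biological replicates and thus 3 libraries per line. TM6 is the parental line, *Pnpt1* neo-flox/neo-flox and untreated, and was immortalized with the SV40 large T antigen. The rho0 line was isolated as a colony of a single TM6 cell after 3 weeks in 750 ng/mL ditercalinium dichloride dihydrochloride, which removes mitochondrial DNA. PKO-1 and PKO-6 are PNPase knockout clones (clone 1 and clone 6), isolated as single cell colonies of TM6 after an adenovirus delivered Cre recombinase. All lines carried the floxed *Pnpt1* alleles, recombined by Cre in PKO, and all grew with 50 µg/mL uridine. Each derived line is 1 clone, so a treatment cannot be told apart from the choice of the clone. The p-values measure the spread between cultures of a line and, where the PKO clones are pooled, also the difference between those clones. Total RNA from a culture cannot separate fewer cells of a kind from less RNA per cell.

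Libraries held 47164860 to 67991378 counts, of which 12.2% to 19.6% fell on the ribosomal RNA precursor *Rn45s*. The targeted gene *Pnpt1* was lower in PKO than in TM6 by 0.98 on the log2 scale (log2 fold change -0.98, edgeR adjusted p = 0.000836, standard error or SE 0.18), from counts over the whole gene, including the exons that Cre leaves. The 8 fibroblast markers summed to 6622 to 6821 TPM (transcript levels per length, scaled to the same sum in each library) in TM6, 3763 to 3866 in rho0, 6778 to 6941 in PKO-1 and 3022 to 3342 in PKO-6, so their level moved between lines. *Col1a1*, *Vim* and *Fn1* were present in all libraries, while *Thy1* reached at most 0.1 TPM and was at 0 in 7 libraries. Markers of other cell types summed to at most 20.2 TPM for the 5 epithelial genes, 0.89 for the 4 endothelial genes, 6.05 for the 5 leukocyte genes in the table and 9.83 for the 4 neural genes. The leukocyte genes *Adgre1* and *Cd3e* were at 0 in all 12 libraries. The part of the fibroblast marker difference in the results below was not tested.

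Among the 10 genes, 3 chaperones held most of the RNA. Per transcript length, *Hsp90b1* had the highest level in each line, with a mean of 981 TPM in TM6, 495 in rho0, 629 in PKO-1 and 638 in PKO-6. *Calr* followed at 913 TPM in TM6, and *Hspa5* at 508. These 3 were the highest in all 4 lines, but in rho0 *Hspa5* (449 TPM) stood above *Calr* (353 TPM). *Hsp90b1* and *Calr* overlapped between libraries in TM6 and in PKO-1, as did *Calr* and *Hspa5* in PKO-6. *Pdia4* came next in each line, at 108 to 159 TPM, and then *Herpud1*, at 37.3 to 60.6 TPM. The lowest levels were those of *Ern1* and *Dnajb9* in TM6, rho0 and PKO-6, and of *Xbp1* and *Ern1* in PKO-1. The 10 genes summed to 2520 to 2782 TPM in TM6, against 1554 to 1618 in rho0, 1765 to 1879 in PKO-1 and 1508 to 1814 in PKO-6.

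A gene was called past both thresholds of the study, 0.01 for the adjusted p of edgeR's quasi-likelihood test and 0.5 for the size of the log2 fold change, with TM6, rho0 and both PKO clones pooled as 3 groups. In rho0 against TM6, 6 of the 10 genes were called, against 29.3% of the 14026 genes tested. *Atf6*, *Ern1* and *Herpud1* rose, where 13.7% of all genes did, and *Calr*, *Hsp90b1* and *Sdf2l1* fell, where 15.6% did. In PKO against TM6, 5 of 10 were called, against 25.7% of all genes: *Atf6* and *Dnajb9* rose, beside 13.5% of all genes, and *Hspa5*, *Hsp90b1* and *Calr* fell, beside 12.2%. The genes did not move in 1 direction, and their median log2 fold change was -0.11 in rho0 and -0.07 in PKO, beside 0.02 and 0.03 over all genes tested. Both comparisons share the TM6 libraries. PKO differed from rho0 in 1 gene of the 10, *Sdf2l1*, against 10.7% of all genes called and 6.33% called higher. The clones differed from each other in 5 of 10, against 29.1% of all genes, in a fit with the 4 lines as separate groups: *Pdia4* and *Calr* were higher in PKO-1 (11.5% of all genes), and *Xbp1*, *Ern1* and *Herpud1* were lower (17.6%). That fit had a biological coefficient of variation of 0.0837, against 0.248 with the clones pooled, where the difference between clones counts as spread. In the fit of 4 lines, 6 genes were called in PKO-1 against TM6, where 34.3% of all genes were, 6 in PKO-6 against TM6, where 41.3% were, and 6 in rho0 against TM6, where 42.1% were. Libraries did not overlap for 8 of the 10 genes in rho0 against TM6 (72.8% of all genes), 6 in PKO against TM6 (47.7%), 6 in PKO against rho0 (32%) and 8 in PKO-1 against PKO-6 (66.5%). The plot of counts by library shows each of the 10 genes, in counts scaled by edgeR's TMM method to the mean library (normalized counts).

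**Figure D1:**
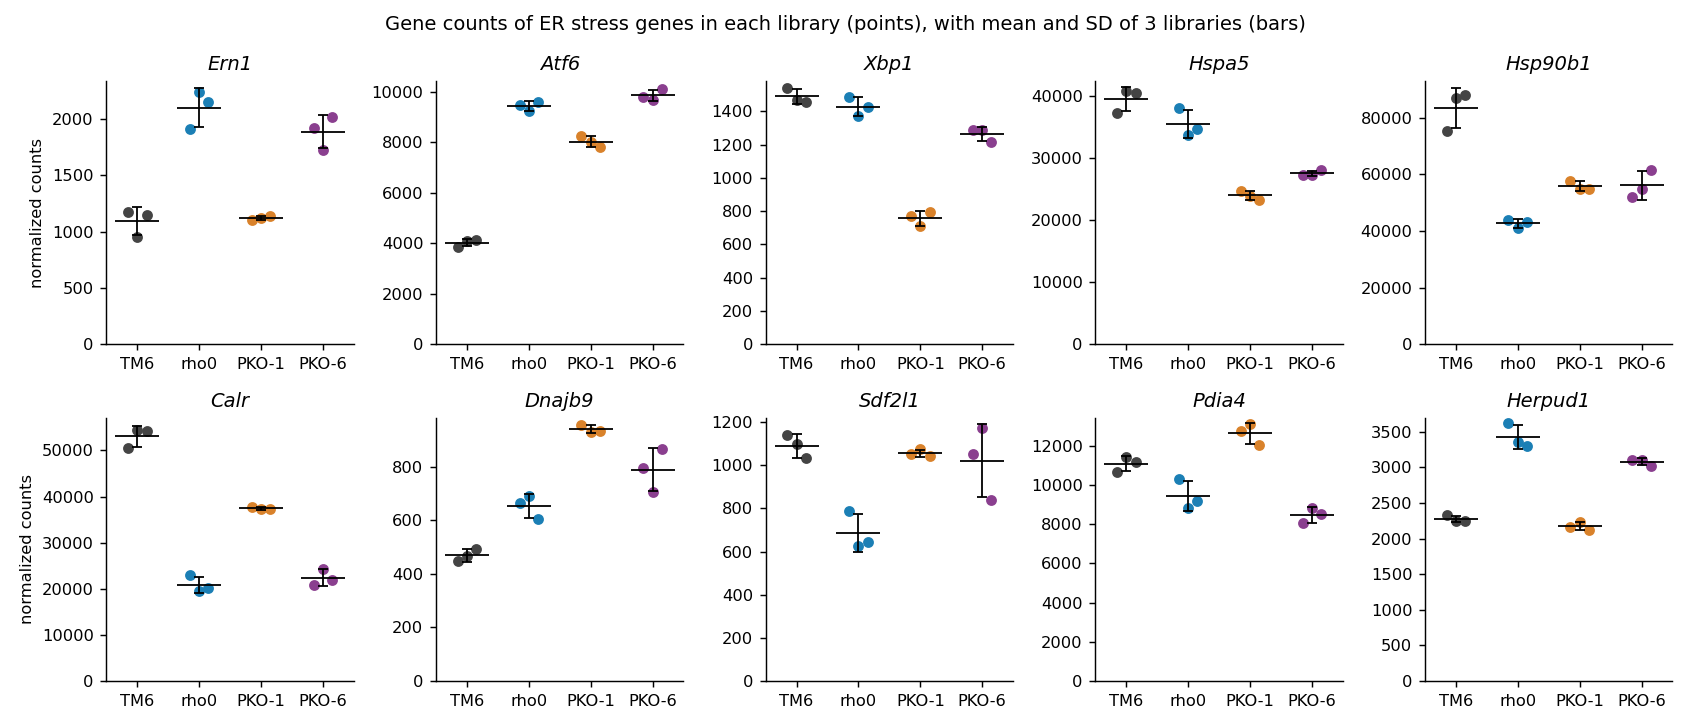
Normalized counts (vertical axes, from 0) of the 10 ER genes in the 12 libraries. Points are libraries, long bars the mean of 3 libraries and error bars their SD. *Atf6* lies at 3870 to 4137 in TM6 and at 7820 to 10124 in the other lines, while *Ern1* and *Herpud1* in PKO-1 lie near TM6.

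Of the sensors, *Atf6* was higher in every derived line. It had 3870, 4086 and 4137 normalized counts in the TM6 libraries, 9504, 9232 and 9598 in rho0, 8272, 8007 and 7820 in PKO-1, and 9785, 9683 and 10124 in PKO-6. The lowest of the 9 derived libraries stood well above the highest of TM6. The log2 fold change was 1.23 in rho0 (edgeR adjusted p = 3.71e-06, SE 0.10) and 1.15 in PKO (edgeR adjusted p = 2.06e-06, SE 0.09), and both calls held under every alternative tried. *Atf6* spans 16 exons of chromosome 1 (GRCm38, 170704457 to 170867771, minus strand), where the median log2 fold change of 792 tested genes was 0.11 in rho0 and 0.21 in PKO.

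*Ern1*, on chromosome 11 from 106397620 to 106487796 on the minus strand, split the clones. TM6 libraries held 1175, 951 and 1152 normalized counts of it, and rho0 libraries 1912, 2240 and 2152. PKO-1 had 1105, 1124 and 1141, within the range of TM6, while PKO-6 had 1922, 1726 and 2019, all above TM6. With the clones pooled, the log2 fold change in rho0 was 0.94 (edgeR adjusted p = 0.0069, SE 0.24). This call was lost when any TM6 or rho0 library was left out of the pooled fit, with adjusted p up to 0.0326. The fit of 4 lines, where the difference between clones does not count as spread, also gave 0.94 in rho0 (edgeR adjusted p = 3.19e-07, SE 0.09). Pooled PKO was not called (log2 fold change 0.46, edgeR adjusted p = 0.0906). In the fit of 4 lines, PKO-6 rose by 0.79 against TM6 (edgeR adjusted p = 1.74e-06), PKO-1 differed by 0.04 (adjusted p = 0.709), and PKO-1 against PKO-6 was -0.75 (edgeR adjusted p = 4.75e-06, SE 0.09).

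The Perk gene *Eif2ak3*, which is not among the 10, went the other way from *Atf6*. It had 1515 to 1528 normalized counts in TM6, 708 to 770 in rho0, 1171 to 1277 in PKO-1 and 816 to 895 in PKO-6, with no overlap between TM6 and any other line. The log2 fold change was -1.04 in rho0 (edgeR adjusted p = 0.00028, SE 0.16) and -0.56 in PKO (edgeR adjusted p = 0.00507, SE 0.14).

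*Xbp1*, the transcription factor made from the RNA that Ire1 cuts, lies on chromosome 11 from 5520641 to 5525993 on the plus strand. The gene as a whole had normalized counts of 1541, 1469 and 1459 in TM6, 1488, 1372 and 1426 in rho0, 773, 708 and 793 in PKO-1, and 1288, 1290 and 1218 in PKO-6. All PKO-1 libraries lay below the 9 others, while PKO-6 stood a little under TM6. PKO-1 against PKO-6 was -0.74 (edgeR adjusted p = 1.51e-07, SE 0.06), and PKO-1 against TM6 was -0.97 (edgeR adjusted p = 7.36e-09, SE 0.06). With the clones pooled, PKO against TM6 was -0.56 and not called (edgeR adjusted p = 0.0319), and rho0 was at -0.06 (adjusted p = 0.842).

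The deposited values per transcript list *Xbp1* in 2 forms, which differ by the 26 bases that Ire1 removes. These bases, at chr11:5524282-5524307 of GRCm38 on the plus strand, lie in the coding part of exon 4 of the unspliced form, and their removal shifts the reading frame to a later stop. The sequence is shown with 20 bases on either side, since the split of the counts rests on reads that hold or skip it. Capitals mark the 26 bases, and the run spans chr11:5524262-5524327.
Xbp1 intron cut by Ire1: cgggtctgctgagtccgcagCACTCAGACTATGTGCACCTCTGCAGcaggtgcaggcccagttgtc

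The spliced form took 29.3%, 41.1% and 50.3% of the *Xbp1* counts in the TM6 libraries, and 44.8%, 44.1% and 45.4% in rho0. In PKO-1 it took 7.51%, 7.82% and 10.9%, below every other library. In PKO-6 it took 59.2%, 64.4% and 74.3%, above every other library. The mean of 3 libraries with its SD was 8.73% ± 1.86 in PKO-1 (n = 3) and 66.0% ± 7.66 in PKO-6 (n = 3), beside 40.2% ± 10.5 in TM6 (n = 3) and 44.8% ± 0.641 in rho0 (n = 3). The spread in TM6 covered all 3 rho0 libraries, and the difference of 4.55 percentage points was within it (two-sided exact permutation test, p = 0.7, n = 3 and 3). PKO-1 lay 57.2 points below PKO-6 (difference -57.2), with a two-sided exact permutation p of 0.1, which is the smallest that 3 against 3 can give, and 0.15 adjusted over 6 comparisons. The same smallest p of 0.1 came from the exact tests of PKO-1 against TM6 (-31.5 points), PKO-6 against TM6 (25.8 points) and PKO-1 against rho0 (-36.0 points). With both clones pooled, PKO lay 2.85 points below TM6 (difference -2.85, two-sided exact permutation p = 0.905, 6 against 3, smallest possible p 0.0238), since the clones lay on opposite sides of TM6.

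**Figure D2:**
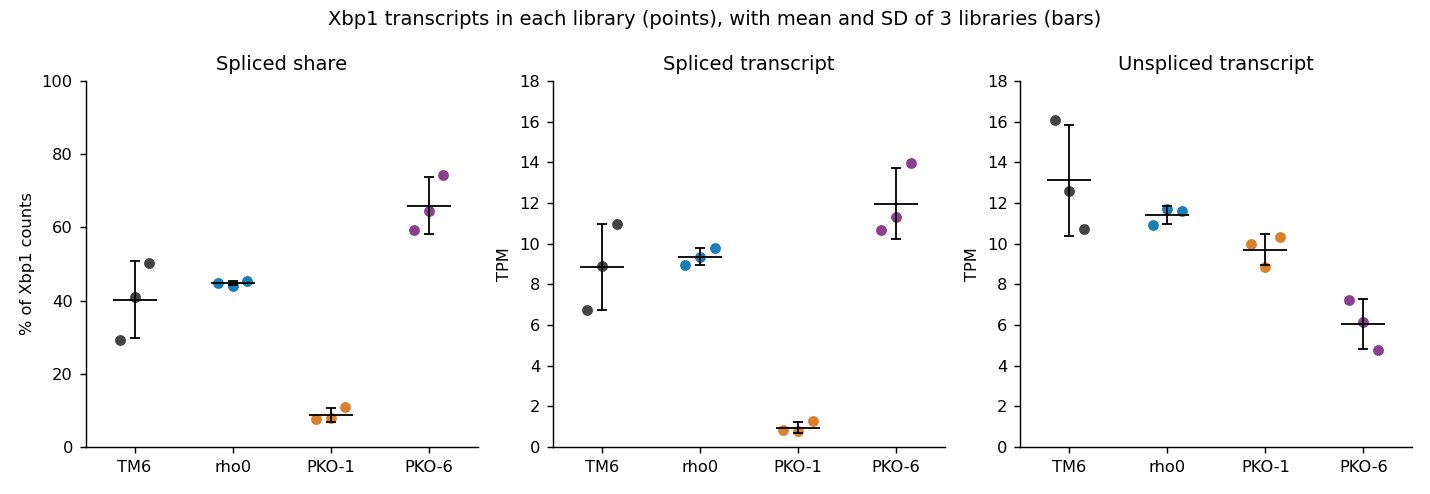
Share of *Xbp1* counts on the spliced form (left, in %) and the level of the spliced and the unspliced form in TPM (middle and right), for each of the 12 libraries. Points are libraries, long bars the mean of 3 and error bars their SD. The spliced form is at 0.76 to 1.28 TPM in PKO-1 and at 6.73 to 13.95 TPM in the other lines.

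In TPM, the spliced form stood at 6.73, 8.88 and 10.97 in TM6 and at 0.82, 0.76 and 1.28 in PKO-1. In an edgeR fit over 20422 transcripts, chosen after the 2 forms were seen, the spliced form was called lower in PKO-1 against PKO-6 (log2 fold change -3.64, adjusted p = 3.14e-07, SE 0.21), where 20.2% of transcripts were called, and in PKO-1 against TM6 (log2 fold change -3.15, adjusted p = 6.4e-07), where 25.2% were. In PKO-6 against TM6, where 31% of transcripts were called, the unspliced form fell (log2 fold change -1.04, adjusted p = 0.000605, SE 0.18), and the spliced form was at 0.49 and not called (adjusted p = 0.0451). The split is an estimate by RSEM, and with even coverage only about 58 to 158 fragments per library would touch the 26 bases, the fewest in PKO-1. No binomial interval is given, since most *Xbp1* reads do not tell the forms apart.

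Of the main ER chaperones, *Hsp90b1* and *Calr* fell in both comparisons with TM6, and *Hspa5* fell in PKO but was not called in rho0. *Hspa5* encodes BiP, the Hsp70 of the ER and the chaperone that holds the sensors inactive. It lies on chromosome 2 from 34772090 to 34776529 on the plus strand. Its normalized counts of 37368, 40909 and 40557 in TM6 overlapped the 38179, 33828 and 34711 of rho0. PKO-1 had 24784, 23931 and 23338 and PKO-6 had 27282, 27352 and 28093, all below both other lines. Against TM6, the log2 fold change was -0.62 in PKO (edgeR adjusted p = 4.28e-05, SE 0.07) and -0.16 in rho0, which was not called (edgeR adjusted p = 0.16, SE 0.09). The difference between PKO and rho0 was -0.46 with an adjusted p of 0.000948 from edgeR, short of the fold threshold.

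*Hsp90b1* encodes Grp94, the Hsp90 of the ER, on chromosome 10 from 86690841 to 86705444 on the minus strand. It had normalized counts of 75289, 87080 and 88032 in TM6, 44030, 41001 and 43079 in rho0, 57878, 55003 and 55029 in PKO-1, and 51900, 54819 and 61716 in PKO-6. All 9 derived libraries lay below TM6, with rho0 the lowest. Against TM6, *Hsp90b1* was at a log2 fold change of -0.97 in rho0 (edgeR adjusted p = 4.58e-06, SE 0.08) and -0.57 in PKO (edgeR adjusted p = 5.01e-05, SE 0.07). With chromosome medians removed, PKO was at -0.48, short of the fold threshold and not called (adjusted p = 0.000223). PKO against rho0 was 0.39 (edgeR adjusted p = 0.00223), short of the fold threshold.

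*Calr* encodes calreticulin, a lectin chaperone that folds glycoproteins and binds calcium, on chromosome 8 from 84842088 to 84846931 on the minus strand. Normalized counts of 50462, 54491 and 54203 in TM6 stood far above the 22879, 19525 and 20193 of rho0. PKO-1 had 37812, 37406 and 37220, between TM6 and the others, while PKO-6 had 20772, 24381 and 21891, within or near the range of rho0. *Calr* had a log2 fold change of -1.35 in rho0 (edgeR adjusted p = 0.000677, SE 0.24) and -0.83 in PKO (edgeR adjusted p = 0.00464, SE 0.20). The PKO change was no longer called without any 1 of the 3 TM6 libraries and with chromosome medians removed (log2 fold change -0.54, adjusted p = 0.0466). In the fit of 4 lines, PKO-1 against TM6 was -0.50 (edgeR adjusted p = 3.85e-05), at the fold threshold, and PKO-6 against TM6 was -1.25 (edgeR adjusted p = 3.29e-09). PKO-1 stood above PKO-6 by 0.75 (edgeR adjusted p = 1.05e-06, SE 0.07). The 739 tested genes of chromosome 8 had a median of 0.30 in that comparison, and with it removed *Calr* was at 0.42, short of the fold threshold.

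**Figure D3:**
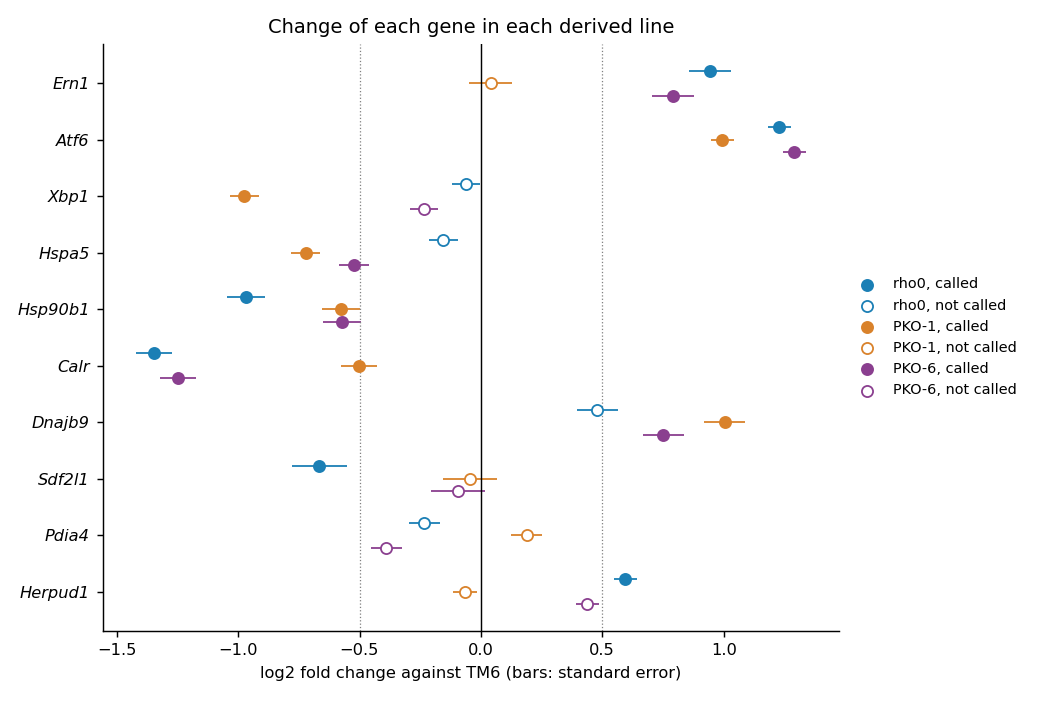
Log2 fold change against TM6 (horizontal axis) of the 10 ER genes in rho0, PKO-1 and PKO-6, from the fit of 4 lines, with standard errors as bars. Filled points are called, and dotted lines mark the fold threshold of 0.5. *Hsp90b1* and *Calr* are called lower and *Atf6* higher in all 3 lines, while *Xbp1* is called lower in PKO-1 and *Sdf2l1* in rho0. *Calr* in PKO-1, at -0.50, lies at the threshold.

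The promoters of these 3 chaperones share a letter pattern. The ER stress response element (ERSE), to which Atf6 is known to bind together with NF-Y, was searched as CCAAT, 9 bases of any kind and CCACG, on both strands, in the 250 bases before each start, in RefSeq promoters of GRCm38.p6. It was found in *Hspa5*, *Hsp90b1* and *Calr*, that is in 3 of the 9 genes with a promoter in the table (*Atf6* has no entry), and in 37 of 32851 promoters (0.113%). *Hsp90b1* held it on both strands. A shorter form, ERSE-II, searched as ATTGG, any base and CCACG, was found in *Herpud1* and in 10 of 32851 promoters (0.0304%). Both elements are known from genes of the ER stress response, and the 10 genes were chosen as such genes. Their presence here is therefore a description of the promoters and no test of enrichment. The UPRE core TGACGTGG, a site known for spliced Xbp1, was in none of the 9 genes and in 0.563% of promoters, which says only that these letters are not in the window. CCAAT alone, which also lies inside both ERSE forms, was in 7 of the 9 genes and in 33.8% of promoters. The 4 promoters are given 5′ to 3′ in the direction of the gene, with the fixed letters of ERSE or ERSE-II in capitals on whichever strand they lie. That of *Herpud1* ends at the start of the RefSeq table, which lies upstream of the start of the gene given with its values. They span chr2:34771840-34772089 (plus strand), chr10:86705445-86705694 (minus), chr8:84846932-84847181 (minus) and chr8:94386179-94386428 (plus).
Hspa5 promoter: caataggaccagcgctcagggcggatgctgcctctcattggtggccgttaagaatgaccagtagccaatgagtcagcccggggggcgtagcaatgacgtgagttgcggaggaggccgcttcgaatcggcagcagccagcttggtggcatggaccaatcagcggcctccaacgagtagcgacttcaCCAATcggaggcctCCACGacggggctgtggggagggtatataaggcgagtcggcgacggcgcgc
Hsp90b1 promoter: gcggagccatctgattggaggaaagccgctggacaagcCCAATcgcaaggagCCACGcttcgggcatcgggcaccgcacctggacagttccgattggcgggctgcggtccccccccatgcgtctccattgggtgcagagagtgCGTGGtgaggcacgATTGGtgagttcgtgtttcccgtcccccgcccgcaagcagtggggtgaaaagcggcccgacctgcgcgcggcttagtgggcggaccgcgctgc
Calr promoter: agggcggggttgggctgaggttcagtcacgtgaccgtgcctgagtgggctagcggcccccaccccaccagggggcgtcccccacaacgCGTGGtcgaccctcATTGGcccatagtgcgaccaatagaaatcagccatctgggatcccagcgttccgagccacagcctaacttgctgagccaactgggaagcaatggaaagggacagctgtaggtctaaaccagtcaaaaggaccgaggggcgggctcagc
Herpud1 promoter: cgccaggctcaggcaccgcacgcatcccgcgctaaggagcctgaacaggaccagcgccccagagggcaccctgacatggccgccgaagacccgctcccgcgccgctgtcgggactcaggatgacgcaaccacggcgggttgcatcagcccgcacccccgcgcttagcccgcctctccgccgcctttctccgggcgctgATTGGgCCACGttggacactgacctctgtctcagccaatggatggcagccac

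The genes with these letters did not all move in 1 direction. The 3 with ERSE were called lower in PKO. In rho0, *Hsp90b1* and *Calr* were called lower, while *Hspa5*, at a log2 fold change of -0.16, was not called. *Herpud1*, which anchors the machinery that returns misfolded proteins from the ER for degradation, rose in rho0. It lies on chromosome 8 from 94386500 to 94395358 on the plus strand. TM6 libraries held 2326, 2249 and 2245 normalized counts, and rho0 libraries 3624, 3363 and 3304. PKO-1 had 2168, 2234 and 2117, just below TM6, and PKO-6 had 3106, 3110 and 3025, between TM6 and rho0. With the clones pooled, the log2 fold change in rho0 was 0.59 (edgeR adjusted p = 0.00884, SE 0.16). In that fit the call was lost without any single TM6 or rho0 library, with adjusted p up to 0.0322. The fit of 4 lines, where the difference between clones does not count as spread, also gave 0.59 in rho0 (edgeR adjusted p = 8.23e-08, SE 0.05). PKO-1 against PKO-6 was -0.50 (edgeR adjusted p = 7.24e-07, SE 0.05), at the fold threshold, and lay between -0.52 and -0.48 with each library left out and at -0.83 with chromosome medians removed. *Herpud1* also held the C/EBP-ATF response element (CARE) TTGCATCA, a site known for Atf4, which was in 0.791% of promoters.

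The other folding factors were split. *Dnajb9* encodes ERdj4, a BiP cochaperone that is a known target of spliced Xbp1. It had normalized counts of 447, 468 and 494 in TM6, 665, 690 and 606 in rho0, 958, 932 and 936 in PKO-1, and 798, 705 and 866 in PKO-6. All derived libraries lay above TM6, and PKO-1, with the lowest spliced share of *Xbp1*, had the highest *Dnajb9*. PKO-1 against PKO-6 was 0.25 and not called (edgeR adjusted p = 0.0162, SE 0.08), and a link between *Dnajb9* and the spliced share was not tested. In PKO the log2 fold change was 0.88 (edgeR adjusted p = 4.55e-05, SE 0.11) and in rho0 0.48, short of the fold threshold (edgeR adjusted p = 0.00615, SE 0.12). The gene lies on chromosome 12 from 44205897 to 44210068 on the minus strand, and the 491 tested genes of that chromosome had a median log2 fold change of 0.55 in rho0 and 0.56 in PKO. With chromosome medians removed, *Dnajb9* was at -0.046 in rho0 (adjusted p = 0.772) and 0.35 in PKO (adjusted p = 0.019), and neither was called.

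*Sdf2l1*, a partner of the BiP cochaperones, lies on chromosome 16 from 17130138 to 17132383 on the minus strand and was the gene that set rho0 apart from PKO. It had normalized counts of 1140, 1098 and 1032 in TM6, 789, 624 and 645 in rho0, 1052, 1075 and 1042 in PKO-1, and 1053, 1173 and 839 in PKO-6. The 3 rho0 libraries lay below all others, while both clones overlapped TM6. For *Sdf2l1* the log2 fold change was -0.67 in rho0 (edgeR adjusted p = 0.000956, SE 0.12) and -0.07 in PKO (adjusted p = 0.618). PKO against rho0 was 0.60 (edgeR adjusted p = 0.00198, SE 0.11), and was not called without rho0 replicate 2 (0.53) or rho0 replicate 3 (0.54), with adjusted p up to 0.0155.

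*Pdia4* encodes the disulfide isomerase ERp72, on chromosome 6 from 47796141 to 47813512 on the minus strand, and its counts share 77 bases with *Mir704* on the same strand. It had normalized counts of 10669, 11447 and 11181 in TM6, 10314, 8829 and 9184 in rho0, 12766, 13115 and 12048 in PKO-1, and 8050, 8826 and 8549 in PKO-6. The clones lay on opposite sides of TM6. Neither rho0 (log2 fold change -0.23, edgeR adjusted p = 0.308) nor pooled PKO (-0.07, adjusted p = 0.733) was called against TM6. PKO-1 stood above PKO-6 by 0.58 (edgeR adjusted p = 3.52e-06, SE 0.06), or by 0.44, short of the fold threshold, with chromosome medians removed.

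Other genes of the pathway were read from lists of related function, whose counts stand beside the shares of all genes called higher and lower, 13.7% and 15.6% in rho0 and 13.5% and 12.2% in PKO. Named genes are the called ones that changed most, so a gene given for rho0 alone or PKO alone can also differ in the other. Of 18 other ER chaperones and folding enzymes, 2 rose and 7 fell in rho0, and 2 rose and 4 fell in PKO. Their median log2 fold change was -0.43 in rho0 and -0.31 in PKO. *Ero1l*, the oxidase that recharges disulfide isomerases, rose by 2.31 in rho0 (4455 to 5324 normalized counts in TM6, 24068 to 25070 in rho0) and by 1.41 in PKO (11707 to 14929). *Sil1*, which exchanges the nucleotide on BiP, rose by 0.99 in PKO (1204 to 1255 normalized counts in TM6, 2100 to 2731 in PKO), and rho0 libraries held 2644 to 2978. *Creld2*, a small ER stress protein, fell by 1.53 in rho0, and *Fkbp14*, a prolyl isomerase of the ER, fell by 2.03 in rho0 and by 1.41 in PKO. Between the clones, *P4hb*, the main disulfide isomerase, was higher in PKO-1 (log2 fold change 0.99), as was *Pdia5* (0.72), and *Fkbp14* was lower (-0.82).

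Of 16 genes of ER-associated degradation (ERAD) and translocation, 2 rose and 2 fell in rho0, and 2 rose and 3 fell in PKO, which in rho0 is near the share over all genes. *Sel1l*, the adaptor of the main degradation ligase, rose by 1.16 in rho0 and 0.78 in PKO, and *Erlec1*, a lectin of the same pathway, by 0.79 in PKO. Chromosome medians were not taken off these values, nor off those of the other listed genes, and their part in the rises was not tested. In rho0, *Erlec1* had 1736 to 1813 normalized counts, against 1065 to 1166 in TM6. *Sec61b*, a subunit of the translocation channel, fell by 0.93 in rho0, as did the COPII coat gene *Sec24d* by 0.94. Of 9 other sensors and regulators that passed the filter, none rose and 3 fell in rho0, and 2 fell in PKO. These included *Creb3*, a membrane-bound transcription factor, which fell by 0.67 in rho0 and by 0.82 in PKO, and *Tmbim6*, which fell by 0.89 in rho0. Between the clones, PKO-1 had less *Wfs1*, an ER membrane protein (log2 fold change -1.19, edgeR adjusted p = 5.81e-10), while *Creb3l2* (0.85) and the Atf6 protease gene *Mbtps1* (0.57) were higher.

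The genes downstream of Perk and other Atf4 kinases moved apart from the chaperones. Of 10 genes of this arm, 5 rose and none fell in rho0 and likewise in PKO, with a median log2 fold change of 2.04 in rho0 and 1.29 in PKO. In the fit of 4 lines all 10 rose in rho0 (20.7% of all genes did) and 9 rose in PKO-6 (21.9% of all genes), while in PKO-1 4 rose and 1 fell (16.4% and 17.9% of all genes). Between the clones, PKO-1 was called lower for all 10. *Atf4* had 15164 to 15342 normalized counts in TM6, 28647 to 33964 in rho0, 15202 to 16723 in PKO-1 and 33327 to 35944 in PKO-6. *Ddit3* had 963 to 1068 in TM6, 4375 to 5041 in rho0, 1062 to 1185 in PKO-1 and 4284 to 5093 in PKO-6. For both, PKO-1 overlapped TM6 and the other derived lines did not. PKO-1 against PKO-6 was -1.09 for *Atf4* (edgeR adjusted p = 9.48e-09) and -2.04 for *Ddit3* (edgeR adjusted p = 1.22e-10). With the clones pooled, neither gene passed in rho0 (adjusted p = 0.0231 and 0.0114). *Trib3*, a Chop target, rose by 3.77 in rho0 and 2.80 in PKO.

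Mitochondrial chaperones and proteases, from which the ER genes were to be told apart, gave 5 that rose and none that fell of 12 in rho0, and 4 and none in PKO. *Hspa9*, the mitochondrial Hsp70, had 43027 to 47576 normalized counts in TM6, 131910 to 149020 in rho0, 69901 to 78638 in PKO-1 and 111600 to 114990 in PKO-6. Its log2 fold change was 1.60 in rho0 (edgeR adjusted p = 5.18e-05) and 1.03 in PKO (edgeR adjusted p = 0.000458). The ER Hsp70 gene *Hspa5* was called in neither direction in rho0 and lower in PKO. The matrix protease gene *Lonp1* rose by 2.05 in rho0 and by 1.22 in PKO, and the PKO-1 against PKO-6 difference of -1.14 was called. *Dnaja3*, an Hspa9 cochaperone, rose by 1.14 and 0.75. Of 11 cytosolic heat shock genes, 6 fell and none rose in rho0, and 5 fell and none rose in PKO. Among them, *Hspb1* fell by 1.72 in rho0 and *Bag3* by 0.97 in PKO. *Bag3* was also lower in rho0, with a mean of 1306 normalized counts against 3005 in TM6. *Hspa1a* fell by 1.82 in rho0 and *Hspa1b* by 2.48, but these are near-identical copies whose reads the counting could split either way.

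**Figure D4:**
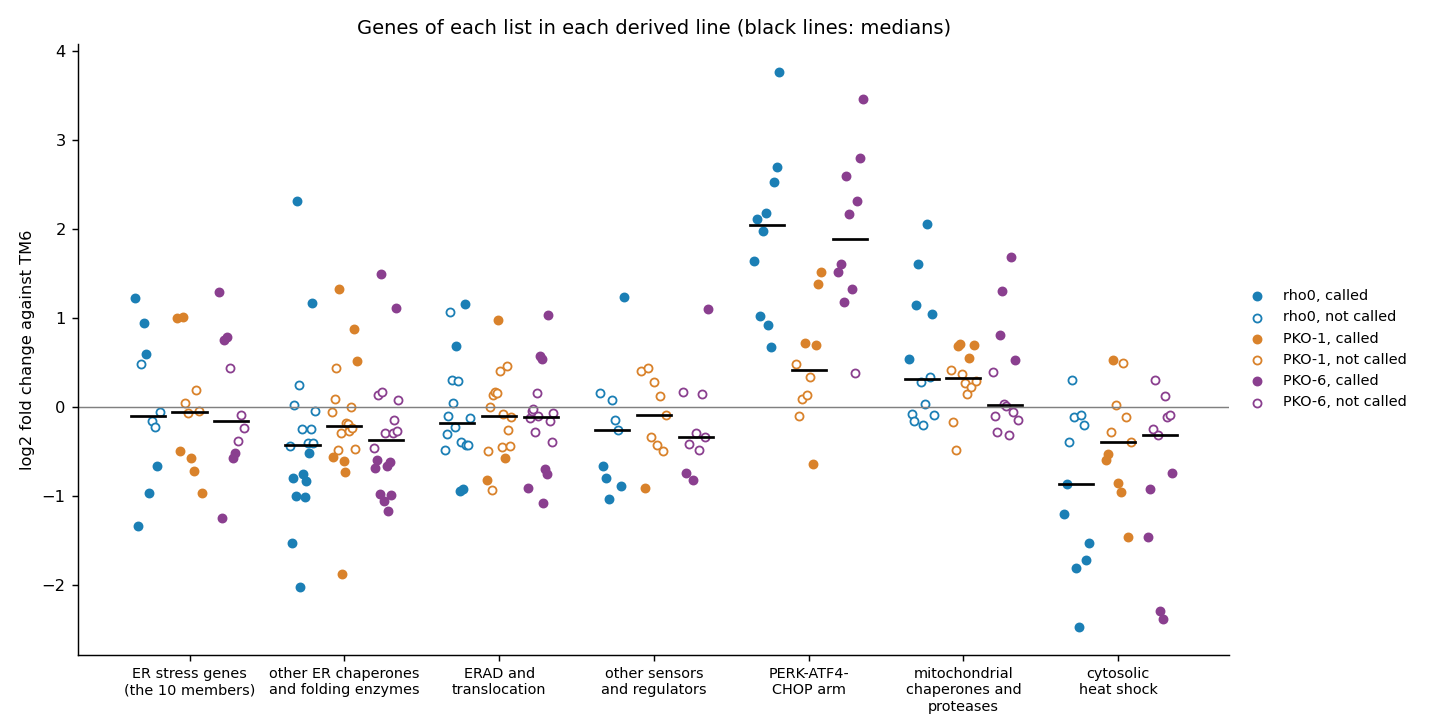
Log2 fold change against TM6 (vertical axis) of the genes of 7 lists in rho0, PKO-1 and PKO-6, from the fit of 4 lines. Points are genes, filled where called, and black lines are medians. The median of the Perk, Atf4 and Chop genes is 2.04 in rho0, 0.41 in PKO-1 and 1.89 in PKO-6, while that of the 10 ER genes is -0.11, -0.06 and -0.16.

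As a description over all 12 libraries, which share lines and depth, the genes whose log2 CPM (counts scaled to library size) ran most like *Hspa5* were *Robo1* (Pearson r = 0.987), *Creb3l1* (0.978), *0610010F05Rik* (0.977), *Erap1* (0.974) and *Mical1* (0.974). Those most like *Xbp1* were *Cdr2l* (0.990), *Cers4* (0.988), *Apobec3* (0.985), *Atg4d* (0.984) and *Dnm2* (0.983).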

How the data were processed

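The 12 libraries were grouped by their labels. The authors sequenced rRNA-depleted, stranded libraries (technical duplicates, reads merged) and, per the labels and methods, estimated counts with RSEM 1.2.25 and bowtie2 on RefSeq transcripts of mm10 (GRCm38). As deposited, the gene table and the transcript tables hold expected counts without normalization, and the transcript tables also TPM. Whether RSEM was run with a strand setting was not given in the sources used here. Depth was 47164860 to 67991378 counts per library, and rounding to whole numbers changed the 12.5% of gene values that had decimals.

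The quasi-likelihood test of edgeR 4.0.16 (R 4.3.3) was applied to 14026 genes that passed filterByExpr (minimum count 10), with TMM scaling and Benjamini-Hochberg adjustment over all of them. Calls used the thresholds of the study, whose own test was the DESeq2 Wald test (DESeq2 1.18.1). A standard error is the absolute log2 fold change divided by the square root of F. TM6, rho0 and PKO were fitted as 3 groups, and the clones in a fit of 4 lines. *Xbp1* shares were compared by two-sided exact permutation tests over libraries. Simulated counts with known fold changes served to check the script. The 10 genes and the lists were chosen with earlier results of these data known. The other genes named are *Pnpt1*, *Eif2ak3*, *Atf4* and *Ddit3*, and, from each list, up to 3 called genes that changed most on the log2 scale in rho0 against TM6, PKO against TM6 and PKO-1 against PKO-6, at a mean of at least 100 normalized counts, with the 5 genes most like *Hspa5* and *Xbp1*. Cell type markers are named besides. A gene that this rule names is not reported here. Promoters are those of RefSeq GRCm38.p6, and the *Xbp1* sequence that of GENCODE M21. The alternatives were DESeq2's size factors and its Wald test with shrunken fold changes (DESeq2 1.42.0), TMM without *Rn45s*, no filter, a replicate block, 4 lines fitted separately, either clone alone, the compared groups alone, other thresholds, chromosome medians removed, TPM for the *Xbp1* share, and each library left out. The *Xbp1* transcript fit and the shares of single lines were added after the data were seen. Protein sequences were not used here.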

Additional observations from a re-analysis of the deposited data

Results flagged for a closer look

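Differences between derived lines were set apart where the test of the difference itself passed the thresholds. The difference between the clones in the *Xbp1* share was added by choice and passed no such threshold. *Sdf2l1* differed between PKO and rho0 (log2 fold change 0.60, edgeR adjusted p = 0.00198). It was higher in 6 of 6 PKO libraries than in any rho0 library, but not called without rho0 replicate 2 (0.53) or replicate 3 (0.54).

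PKO-1 against PKO-6 gave 5 differences in the fit of 4 lines, each with no overlap between the 3 and 3 libraries, as for 66.5% of all genes. *Xbp1* was at -0.74, *Ern1* at -0.75 and *Herpud1* at -0.50, lower in PKO-1, while *Pdia4* at 0.58 and *Calr* at 0.75 were higher. With chromosome medians removed, *Pdia4* was at 0.44 and *Calr* at 0.42, both short of the fold threshold. *Herpud1*, also on chromosome 8, went to -0.83. Without that correction it lay at the threshold, and lost its call in 8 of 12 fits without 1 library.

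The spliced share of *Xbp1* in PKO-1 was 57.2 percentage points under that in PKO-6 (difference -57.2). All PKO-1 libraries, at 7.51% to 10.9%, lay below the 3 TM6 libraries, and all PKO-6 libraries, at 59.2% to 74.3%, above them. The exact permutation test gave its smallest possible p of 0.1. The PKO-1 libraries also held the fewest *Xbp1* counts, 649 to 767 against 1238 to 1782 in the other lines, and the part of that depth in the share was not tested. No ER gene had a library past the cutoff of Dixon's ratio among the 6 PKO libraries. The ratio is the gap from the lowest or highest library to the next, over the whole range, and a difference between clones widens that range. *Sdf2l1* came nearest the cutoff (ratio 0.609), with 839 normalized counts in PKO-6 replicate 3.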

How the results depend on the processing

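Of 910 alternative values for the 40 fold changes of ER genes, 828 kept direction and side of the threshold, 50 lost a call, 21 gained one and 11 changed sign. *Atf6* stayed called against TM6 in all of them. Chromosome medians removed gave -0.046 for *Dnajb9* in rho0 against TM6, and 0.18 for *Hsp90b1* and -0.15 for *Sdf2l1* in PKO-1 against PKO-6. PKO-1 alone against TM6 gave 0.19 for *Pdia4* and -0.065 for *Herpud1*, and PKO-6 alone against rho0 gave 0.063 for *Atf6* and -0.16 for *Pdia4*. None of these was called, and the cause was not tested. With each library left out, the difference between clones ran from -0.058 to 0.070 for *Hsp90b1* and from -0.073 to 0.161 for *Sdf2l1*.

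Counts of called genes moved with the thresholds and, for PKO, with the choice of clone. At a log2 fold change above 1, 2042 genes and 2 ER genes were called in rho0 against TM6, 1788 and 1 in PKO against TM6, 667 and 0 in PKO against rho0, and 1950 and 0 in PKO-1 against PKO-6. At an adjusted p below 0.05 with no fold threshold these were 7168 genes, 6759 genes, 4590 and 5 ER genes, and 8611 and 8 ER genes. In PKO against rho0, PKO-1 alone gave 4590 genes and 7 ER genes, PKO-6 alone 3014 genes, and the 4 lines fitted separately 3330 genes and 3 ER genes. PKO-6 alone gave 5799 genes against TM6. With chromosome medians removed, 3024 genes and 2 ER genes were called in PKO against TM6, and 3626 and 3 in PKO-1 against PKO-6. With each library left out, PKO against rho0 ranged from 841 to 1699 genes and from 0 to 1 ER genes, with 853 without rho0 replicate 2 and 841 and 0 without rho0 replicate 3.

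The spliced *Xbp1* share of rho0 against TM6 ran from -0.922 to 9.60 points with each library left out (-0.922 without TM6 replicate 1), and that of PKO against TM6 from -10.2 to 3.12, positive without TM6 replicate 3 (2.20) or any PKO-1 library. PKO-6 alone gave 25.8 points. The replicate numbers were not taken to pair the samples: correlations of deviations ran from -0.385 to 0.25 in 18 pairs with the same number (median 0.124, over 0.1 in 10), against a median of -0.047 in 36 pairs with different numbers (over 0.1 in 10). TM6 and PKO-6 were the exception, with all 3 same-number pairs over 0.1 (0.209 to 0.25). These 2 lines fitted alone, chosen after seeing the data, gave 5966 genes with a replicate block and 5791 without, and 6 ER genes either way. With a replicate block, 3486, 3113, 1097 and 4027 genes and 4, 4, 1 and 5 ER genes were called in the 4 comparisons, and *Ern1* and *Herpud1* in rho0 (adjusted p = 0.0165 and 0.0212) and *Calr* in PKO (0.0132) were not called. *Calr* in PKO was also not called with the compared groups fitted alone (adjusted p = 0.0118).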

Other observations

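*Hspa5* is listed with 2 transcripts, of 8 and 9 exons, and was looked at after its values were seen. The form with 8 exons had 5259 to 5563 normalized counts in TM6, 3658 to 3932 in rho0, 1481 to 2224 in PKO-1 and 3843 to 3957 in PKO-6. In the transcript fit PKO-1 against PKO-6 was at -0.98 for it (SE 0.12, edgeR adjusted p = 8.73e-05), whereas the form with 9 exons, which held most of the counts, was at -0.11 (adjusted p = 0.198). The split between forms is an estimate by RSEM.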
